A study of Canis lupus familiaris with 18 samples.

Results

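Canine high grade oligodendrogliomas (HGO) were ordered by the level of 5 genes that cells switch on when oxygen is short, and the 5 tumors with the highest score were compared with the 5 with the lowest, out of 16 tumors ranked and 18 libraries in the series. The score of a tumor was the mean z-score over the 16 tumors of the log2 level of VEGFA, ADM, CA9, NDRG1 and SLC2A1, in CPM (counts scaled to a common library total). The tumors were chosen by these 5 levels, which are therefore a description and were not tested. All libraries were bulk RNA from formalin-fixed, paraffin-embedded tumor removed at surgery from pet dogs, labelled as HGO of the forebrain, with 11 libraries of French bulldogs, 4 of boxers and 3 of Boston terriers. Tissue was taken before any trial treatment, and the only label used here that set dogs apart was breed. Ages were not used here.

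The 5 tumors with the highest score came from French bulldogs 11 and 7, boxer 2 and Boston terriers 2 and 3, and the 5 with the lowest from French bulldogs 3, 4 and 5, Boston terrier 1 and the sum of French bulldogs 2 and 8. French bulldogs 2 and 8 carry 1 case number in the labels and were added together as 1 tumor, although the study's methods count them as separate dogs. French bulldogs made up 2 of the 5 highest and 4 of the 5 lowest tumors, a difference that a two-sided Fisher's exact test did not separate from none (p = 0.524). French bulldog 6 was left out. That library stood apart from the other 17: OLIG2, a transcription factor of the oligodendrocyte lineage, had 0 counts there against 96.5 to 278.5 CPM elsewhere, and the summed level of microglia and macrophage markers was 6721 CPM against 70.7 to 528, all scaled by the plain total of each library. The CPM of tumors below use TMM library sizes over the 16 tumors unless plain totals are named, which shifts the values a little. With that library kept in the ranking its score was -0.295 and both groups of 5 were the same. On that scale OLIG2 was at 134 to 291 CPM in the highest and 137 to 244 CPM in the lowest tumors.

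When oxygen falls, the prolyl hydroxylases that mark hypoxia-inducible factor (HIF) alpha subunits for destruction slow down, and HIF1A or EPAS1 protein accumulates, pairs with ARNT and switches on genes for glycolysis, vessel growth and acid export. Most of this control acts on protein, so the mRNA of HIF1A itself often moves little. In high grade gliomas, HIF targets are known to be strong in the cells around necrosis.

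VEGFA, the main vessel growth factor, was at 220, 252, 253, 426 and 322 CPM in the 5 highest tumors, in the order French bulldog 11, boxer 2, Boston terrier 2, Boston terrier 3 and French bulldog 7, and at 67.1, 42.9, 44.3, 64.8 and 31.3 CPM in the 5 lowest, in the order French bulldog 3, Boston terrier 1, French bulldogs 2 and 8, French bulldog 4 and French bulldog 5. All lists of values by tumor keep this order. The 6 tumors in between had 51.9 to 154 CPM. NDRG1, a stress-responsive gene of the brain, was at 189 CPM in French bulldog 11 and at 14.3 to 24.2 CPM in the other 4 highest tumors, which overlap the 4.8 to 16.2 CPM of the lowest. ADM, the vasodilator peptide adrenomedullin, was at 2.33 to 9.80 CPM in the highest and 0.659 to 2.15 CPM in the lowest tumors. CA9, a carbonic anhydrase that exports acid, was at 1.28 to 5.10 against 0.585 to 1.21 CPM, a narrow gap. ADM and CA9 rested on few counts in the lowest tumors, where 3 counts were 0.167 to 0.365 CPM by plain totals. SLC2A1, the glucose transporter of the blood-brain barrier, barely set the groups apart, with 64.9 to 94.6 CPM in the highest, 75.3 to 126 in the middle and 44.1 to 108 CPM in the lowest tumors. VEGFA, ADM and CA9 thus did not overlap between the groups, NDRG1 and SLC2A1 did, and 1 tumor carried most of the NDRG1 signal.

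The scores of the 5 highest tumors were 1.2, 0.80, 0.70, 0.64 and 0.54, and the nearest tumor below the cut was French bulldog 9 at 0.23. Those of the lowest were -0.34, -0.82, -1.01, -1.08 and -1.1, and the nearest tumor above was French bulldog 10 at -0.20. French bulldog 3 sat closest to the cut among the 5 lowest. Kept apart, French bulldog 2 scored -0.86 and French bulldog 8 scored -1.07.

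**Figure D1:**
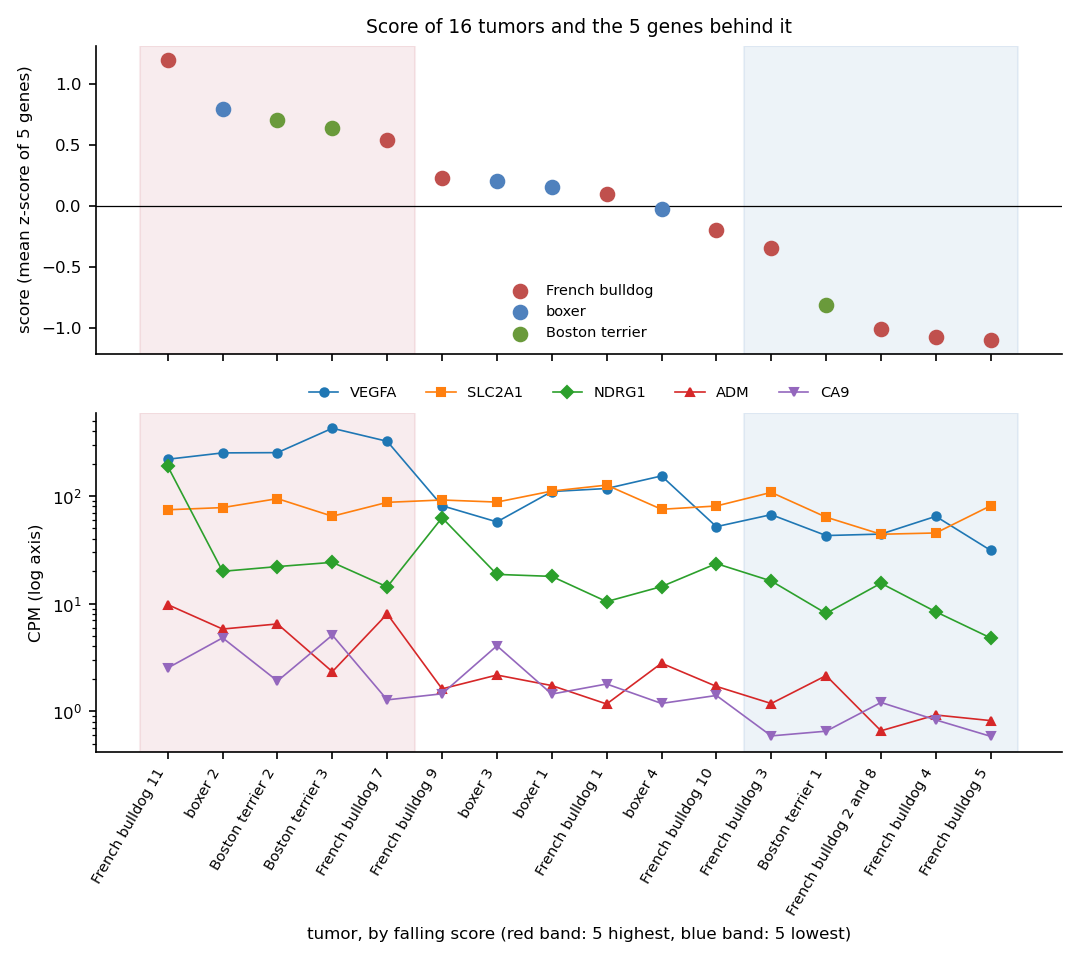
The upper panel plots the score (mean z-score of 5 genes) of each of 16 tumors in falling order, coloured by breed, and the lower panel plots CPM of the 5 score genes on a log axis. VEGFA lies between 220 and 426 CPM in the 5 highest tumors (red band) and between 31.3 and 67.1 CPM in the 5 lowest (blue band), while SLC2A1 overlaps between the bands.

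Depth overlapped between the groups. The highest tumors had 9969732 to 12557261 counts and the lowest 8212452 to 17924670, the largest being the sum of 2 libraries (p = 0.865 in a two-sided exact permutation test of all 252 splits). The number of genes with a count, the share of small non-coding RNAs and the share of the single gene with the highest count gave p = 0.817, 0.492 and 0.460 in the same test. Ribosomal protein genes made up 0.501% ± 0.0629 (SD, n = 5) of counts in the highest and 0.630% ± 0.108 (SD, n = 5) in the lowest tumors (exact permutation test, p = 0.0556).

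Outside the score genes, no gene of 16201 tested passed an adjusted p of 0.05 between the 5 highest and 5 lowest tumors by edgeR's quasi-likelihood test (0.0%), and the smallest adjusted p was 0.0615. At an unadjusted p under 0.05 there were 2069 genes (12.8%), of which 1045 were higher (6.45%) and 1024 lower (6.32%), and 52.7% of all genes had a log2 fold change above 0. Leaving out 1 tumor at a time gave 709 to 1508 higher and 734 to 1258 lower genes. Counts of list members below stand against these shares. The DESeq2 Wald test on the same 10 tumors called 296 genes (1.74% of 17021 with an adjusted p), 143 higher (0.84%) and 153 lower (0.899%), and limma-voom called 5. Keeping French bulldogs 2 and 8 apart gave 165 calls by edgeR. That setting counts the same case number as 2 of the 5 lowest tumors and moved French bulldog 3 out of them, so its calls are no support. Either library alone in place of the sum gave 0 calls, and leaving out French bulldog 3 gave 3. The groups did not overlap for 167 genes that were higher (1.03%) and 270 that were lower (1.67%).

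The score was also fitted as a continuous term over all 16 tumors. There edgeR's quasi-likelihood test with Benjamini-Hochberg adjustment called 468 of 17354 genes (2.7%), of which 237 rose with the score (1.37%) and 231 fell (1.33%), while 3406 (19.6%) had an unadjusted p under 0.05. This count leaned on French bulldog 11: without it 4 genes were called of 16866 tested (0.0237%), 2 up and 2 down (0.0119% each). Of the 468 genes, 464 were tested without it, 464 of these had the same sign and 419 an unadjusted p under 0.05, counts that the choice of genes in a fit sharing 15 tumors largely fixes. Slopes of named genes such as PFKFB3 (0.52 and 0.55), PGK1 (0.40 and 0.48), DCX (-1.03 and -0.997) and BUB1 (-1.53 and -1.45) were close with and without that tumor. Among the genes named below as rising or falling, slopes over 1.5 times smaller without it were those of COL1A1 (0.88), FOS (1.07), CD44 (0.69), ANXA1 (0.61), ANXA2 (0.45), IGFBP3 (1.795) and SOCS3 (0.61). Below, "rose" and "fell" refer to calls of the fit over 16 tumors, and each such call named here except C5AR1 and ARHGAP45 was lost when French bulldog 11 was left out. C5AR1 could pass the filter on low counts only through the highest tumors, so its call is no support.

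Of the established hypoxia targets outside the score, 36 were in the table and 32 passed the filter on low counts and were tested. Their median log2 fold change was 0.26 against 0.03 over all genes, and 24 of 32 were above 0 (52.7% of all genes). At an unadjusted p under 0.05, 5 were higher and 1 lower, against 6.45% and 6.32% of all genes. Without French bulldog 11 the median was 0.17, with 21 of 32 above 0. In the fit over 16 tumors, 4 of 34 rose, against 1.37% of all genes, and 0 fell. The 4 were PFKFB3, BHLHE40, PGK1 and IGFBP3, and the call of IGFBP3 is no support for the reason given below. The summed level of the list ran from 1092 to 1271 CPM in the highest and from 912 to 1204 CPM in the lowest tumors, so the groups overlapped. The label of hypoxic tumors is thus carried by some HIF targets and not by others, and the groups are called here by their score.

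PFKFB3, which makes the activator of phosphofructokinase, was the clearest of these. Its levels were 162, 151, 115, 93.3 and 152 CPM in the highest tumors and 65.1, 83.2, 60, 75.3 and 77.4 CPM in the lowest. The groups did not overlap, with a log2 fold change of 0.92 ± 0.19 (SE; adjusted p = 0.218), and PFKFB3 rose by 0.52 log2 units per unit of score (adjusted p = 0.0282). EGLN3, an oxygen-sensing prolyl hydroxylase that HIF itself induces, was at 16.4, 11.6, 9.55, 17.98 and 13.1 CPM against 7.68, 7.56, 5.27, 7.30 and 6.20 CPM. These groups did not overlap either (log2 fold change 1.03 ± 0.23 SE), but neither the contrast nor the slope passed (adjusted p = 0.252 and 0.129). BHLHE40, a transcriptional repressor of the clock and of stress responses, was at 121, 45.4, 40.04, 30.9 and 79.2 CPM against 35.5, 15.9, 7.91, 23.3 and 11.7 CPM. Only Boston terrier 3 lay below the highest of the low-score tumors, and BHLHE40 rose with the score by 1.08 (adjusted p = 0.0179). PGK1, the glycolytic enzyme phosphoglycerate kinase, was at 69.5, 81.2, 61.1, 107 and 73.7 CPM against 63.5, 47.6, 34.9, 50.4 and 46.0 CPM, and rose by 0.40 per unit of score (adjusted p = 0.0442).

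IGFBP3, a binding protein for insulin-like growth factors, rose with the score by 3.36 (adjusted p = 0.0134), but its levels were 95.5 CPM in French bulldog 11 and only 2.27, 5.32, 2.07 and 1.37 CPM in the other highest tumors. In the lowest tumors it was at 3.35, 0.0933, 0, 0.462 and 0 CPM, so 1 tumor held nearly all of the signal. IGFBP3 could pass the filter on low counts only through the highest tumors. Its place among the 5 higher and 4 rising targets is thus no support. PLAUR, the urokinase receptor, and ANKRD37 had log2 fold changes of 1.43 ± 0.69 and 0.90 ± 0.47 (SE) with overlapping groups (adjusted p = 0.410 and 0.434). MXI1, a MYC antagonist that HIF induces, lay on the other side with a log2 fold change of -0.59 ± 0.26 (SE; adjusted p = 0.386), and its highest level, 198 CPM, was in French bulldogs 2 and 8. HK2, an inducible hexokinase named here after its values were seen, was at 6.26, 18.9, 4.82, 18.1 and 5.01 CPM in the highest tumors and at 9.55, 19.8, 7.36, 27.2 and 28.4 CPM in the lowest (log2 fold change -0.79 ± 0.52 SE, adjusted p = 0.523).

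Of the genes that sense oxygen or form HIF, 14 were tested and 0 were called in either fit, with a median log2 fold change of -0.02, which ran from -0.06 to 0.03 without 1 tumor at a time. At an unadjusted p under 0.05, 2 were higher and 1 lower: CITED2, which competes with HIF for a coactivator (log2 fold change 1.08 ± 0.40 SE, adjusted p = 0.347), ELOB, a partner of VHL (0.52 ± 0.21 SE, adjusted p = 0.363), and VHL itself. CITED2 and ELOB were named after their values were seen. HIF1A was at 61.5 to 105 CPM in the highest and 76.9 to 153 CPM in the lowest tumors (log2 fold change -0.17 ± 0.23 SE, adjusted p = 0.747). EPAS1, the HIF2 alpha subunit that vessels express strongly, was at 205 to 621 against 79.5 to 444 CPM (0.54 ± 0.41 SE, adjusted p = 0.576). ARNT, the shared partner, was at 19.8 to 90.8 against 25.7 to 60.7 CPM (0.30 ± 0.40 SE, adjusted p = 0.751). VHL, the ubiquitin ligase subunit that removes HIF alpha, was at 35.1, 57.2, 52.5, 66.5 and 57.4 CPM against 65.3, 72.4, 66.5, 75.1 and 98.0 CPM. Of the highest tumors only Boston terrier 3 reached the low-score range of VHL, and the log2 fold change of -0.47 ± 0.19 (SE) did not pass (adjusted p = 0.365).

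**Figure D2:**
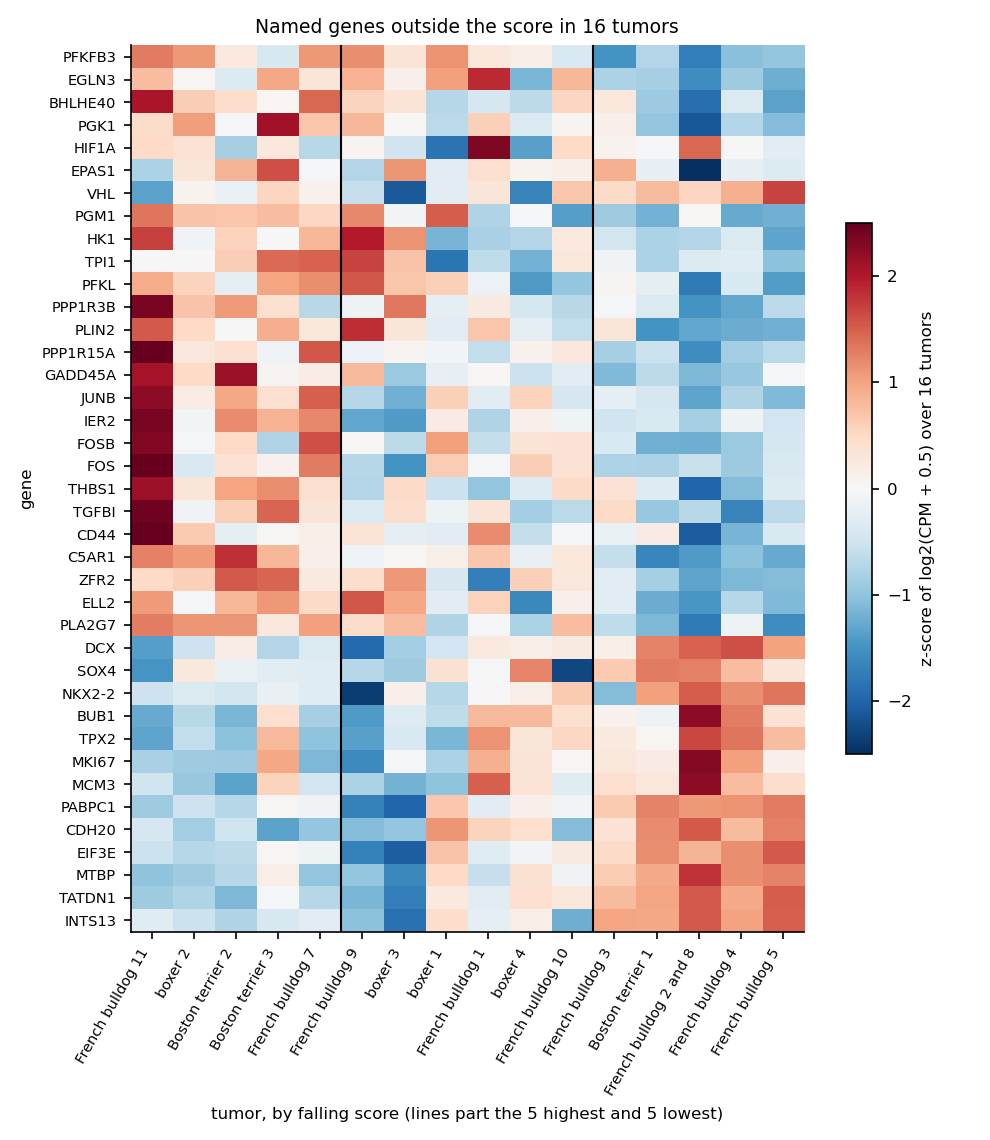
Each row is a gene outside the score and each column a tumor in falling order of score, with colour giving the z-score of log2(CPM + 0.5) over 16 tumors and lines parting the 5 highest and 5 lowest. French bulldog 11 stands out for FOS (712 CPM), JUNB and CD44, while PABPC1, EIF3E and TATDN1 are low in all 5 highest and high in all 5 lowest tumors.

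Glycolytic enzymes lay higher in the high-score tumors. All 12 tested had a log2 fold change above 0, with a median of 0.68, and 7 had an unadjusted p under 0.05 (0 were called in either fit). Their summed level was 852 to 1106 CPM in the highest and 511 to 702 CPM in the lowest tumors, without overlap. The middle tumors ran from 588 to 1460 CPM, and French bulldog 9 (1460 CPM) and boxer 3 (1149 CPM) lay above every high-score tumor. PGM1, which links glycogen to glycolysis, was at 47.0, 40.1, 40.0, 40.7 and 38.3 CPM against 26.9, 25.01, 33.9, 24.6 and 24.9 CPM (log2 fold change 0.63 ± 0.14 SE, adjusted p = 0.252). HK1, the constitutive hexokinase of brain, was at 171, 83.1, 108, 85.5 and 120.3 CPM against 71.6, 62.7, 63.8, 74.3 and 50.3 CPM (0.84 ± 0.22 SE, adjusted p = 0.274). The groups did not overlap for either enzyme. TPI1, triose phosphate isomerase, was also apart at 59.9 to 96.3 against 43.3 to 58.5 CPM, and PFKL, liver-type phosphofructokinase, overlapped at 15.2 to 29.4 against 7.08 to 17.4 CPM (both adjusted p = 0.297). Without 1 tumor at a time, 4 to 8 of the 12 enzymes had an unadjusted p under 0.05, and with French bulldogs alone there were 4.

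Of 10 genes of glycogen and lipid stores, 2 rose with the score. PPP1R3B, which targets phosphatase to glycogen, rose by 2.42 (adjusted p = 0.0122), with 193, 22.1, 35.2, 14.8 and 3.19 CPM in the highest and 7.97, 5.23, 0.824, 1.2 and 3.39 CPM in the lowest tumors. French bulldog 11 was far above the rest and French bulldog 7 within the low-score range. PLIN2, a lipid droplet coat protein, rose by 0.56 (adjusted p = 0.0319) and lay at 10.6 to 17.9 against 6.35 to 11.8 CPM. Brain glycogen phosphorylase PYGB and glycogen synthase GYS1 had log2 fold changes of 0.57 ± 0.21 and 0.50 ± 0.20 (SE) that did not pass (adjusted p = 0.344 and 0.361).

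Stress response genes gave 6 of 13 higher and 0 lower at an unadjusted p under 0.05 (median log2 fold change 0.43, and 0.81 without French bulldogs 2 and 8 or 0.76 with breed as a covariate). PPP1R15A, which restarts translation after stress, was at 80.1, 26.4, 27.7, 22.0 and 47.5 CPM against 15.7, 17.9, 11.1, 15.3 and 16.9 CPM, and GADD45A, a growth arrest gene, at 20.2 to 40.9 against 13.3 to 19.3 CPM. Neither gene overlapped between the groups, and both rose with the score (adjusted p = 0.0178 and 0.0440). CEBPB and SESN2 had log2 fold changes of 1.51 ± 0.41 and 0.79 ± 0.25 (SE) that did not pass (adjusted p = 0.287 and 0.298).

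Immediate early genes, transcription factors and phosphatases that cells induce within minutes of a stimulus, had a median log2 fold change of 2.02. Of 11 tested, 9 were higher at an unadjusted p under 0.05, and 7 rose with the score. FOS was at 712, 23.2, 54.8, 41.5 and 158 CPM in the highest tumors against 15.0, 14.6, 19.2, 12.8 and 23.3 CPM in the lowest. JUNB was at 170.4, 25.4, 52.5, 30.9 and 86.3 CPM against 17.1, 14.1, 5.93, 10.2 and 7.26 CPM, and IER2 at 19.2 to 165 against 9.50 to 17.9 CPM, neither with overlap. The slopes with the score were 1.81 for FOS, 1.59 for JUNB, 1.23 for IER2 and 2.5 for FOSB (adjusted p = 0.0201, 0.0134, 0.0351 and 0.0179). The summed level of the list was 3811 CPM in French bulldog 11, 433 to 1194 CPM in the other 4 highest tumors and 313 to 538 CPM in the lowest. Without French bulldog 11, 7 were higher and 1 lower at an unadjusted p under 0.05, with a median of 1.22.

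**Figure D3:**
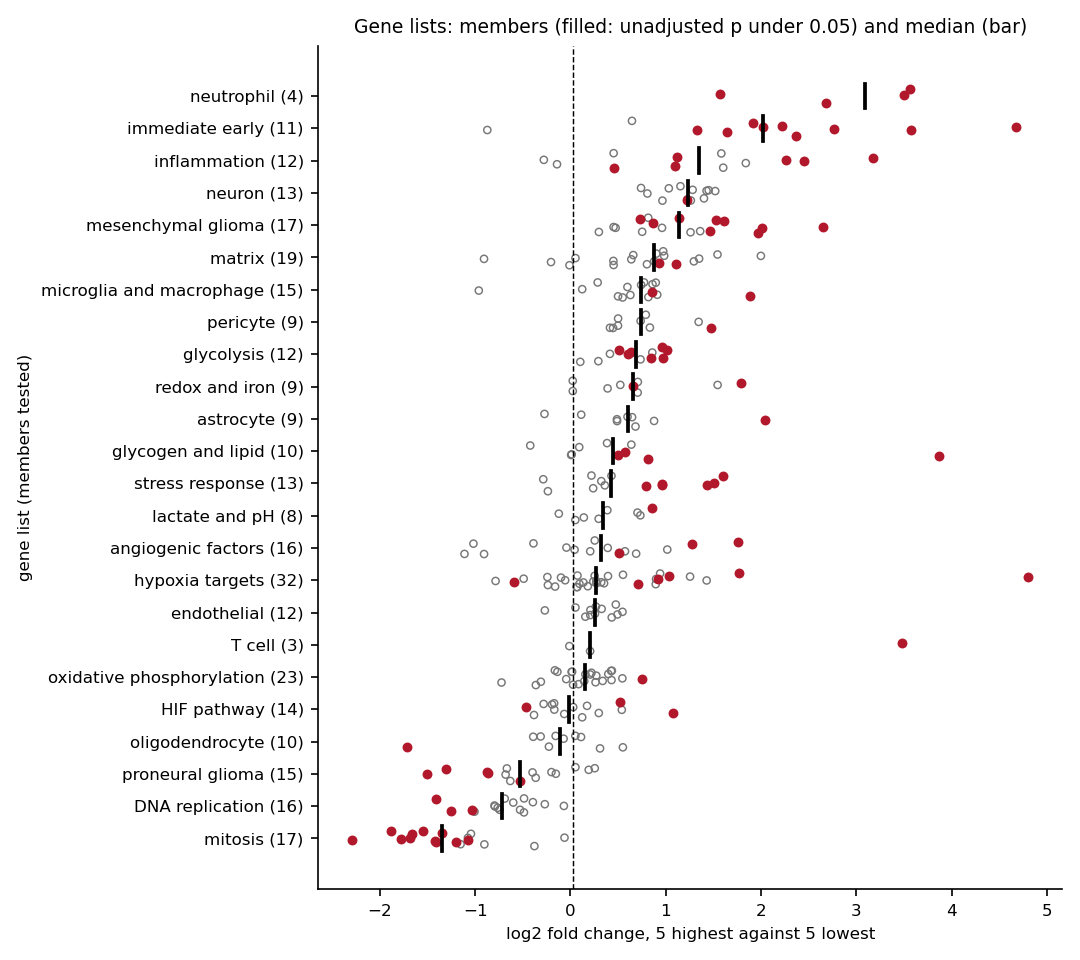
Each point is the log2 fold change of a list member between the 5 highest and 5 lowest tumors, filled where the unadjusted p was under 0.05, with a bar at the list median and a dashed line at the median of all genes (0.03). Immediate early genes (median 2.02) and glycolysis (0.68) lie to the right, and mitosis (-1.35) and DNA replication (-0.72) to the left with every member below 0.

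Among 16 angiogenic factors other than VEGFA, 3 were higher at an unadjusted p under 0.05 and 1 rose with the score. That was THBS1, thrombospondin, which restrains vessel growth, at 113, 29.2, 48.5, 55.3 and 31.7 CPM against 30.7, 18.5, 5.21, 10.3 and 18.3 CPM (slope 1.08, adjusted p = 0.0272). VEGFB was at 33.8 to 47.0 against 24.6 to 34.7 CPM and HGF at 3.82 to 13.6 against 1.15 to 4.43 CPM, with log2 fold changes of 0.51 ± 0.16 and 1.28 ± 0.51 (SE) that did not pass (adjusted p = 0.297 and 0.359). VEGFC, the lymphatic growth factor, had a log2 fold change of -1.11 ± 0.51 (SE; adjusted p = 0.389). The list median was 0.32, and without French bulldog 3 it was 0.83 with 6 of 16 higher at an unadjusted p under 0.05. The median was 0.14, 0.16 and 0.18 without French bulldog 5, French bulldogs 2 and 8 and French bulldog 11.

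Endothelial markers depended most on 1 low-score tumor. With all 10 tumors 0 of 12 had an unadjusted p under 0.05 and the median log2 fold change was 0.26, but without French bulldog 3, 10 of 12 were higher at an unadjusted p under 0.05 with a median of 1.01. Over all genes 1508 of 16558 were higher at that threshold without this tumor. Leaving out each other tumor in turn gave 0 of 12 and medians from 0.11 (without French bulldogs 2 and 8) to 0.41 (without Boston terrier 2). PECAM1 was at 59.99, 98.2, 37.7, 70.7 and 51.7 CPM against 131, 38.5, 19, 24.9 and 15.2 CPM, and KDR, the VEGFA receptor, at 21.0 to 74.2 against 25.6 to 115 CPM (adjusted p = 0.708 and 0.828). French bulldog 3 had the highest level of both among the 10 tumors. The summed endothelial level was 1175 CPM there, 212 to 415 CPM in the other 4 lowest and 405 to 667 CPM in the highest tumors. Of 9 pericyte and smooth muscle markers tested 1 was higher at an unadjusted p under 0.05 (median 0.74), and without French bulldog 3 there were 8 (median 1.43), while the median was 0.47 without French bulldogs 2 and 8. The contractile gene TAGLN rose with the score, at 19.2 to 50.5 against 2.63 to 26.0 CPM (slope 1.14, adjusted p = 0.0272). PDGFRB, the pericyte receptor, was at 88.2 to 135 against 22.8 to 168 CPM (adjusted p = 0.517). In bulk tissue, fewer cells of a type and less RNA per cell cannot be told apart.

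Mesenchymal glioma genes all lay above 0 (17 of 17, median log2 fold change 1.14), with 9 higher at an unadjusted p under 0.05 and 4 that rose with the score: TGFBI, CD44, ANXA1 and ANXA2. The slopes of ANXA1 and ANXA2 were 1.06 and 0.93 with French bulldog 11 and 0.61 and 0.45 without it. TGFBI, a matrix protein induced by TGF beta, was at 148, 12.3, 24.1, 57.0 and 18.5 CPM against 21.5, 5.04, 6.48, 2.22 and 6.79 CPM (slope 1.73, adjusted p = 0.0122). CD44, the hyaluronan receptor, was at 309.6 CPM in French bulldog 11 and 31.4 to 65.1 CPM in the other highest tumors, against 6.53 to 44.6 CPM in the lowest (slope 1.21, adjusted p = 0.0321). CHI3L1 and SOD2 had log2 fold changes of 2.01 ± 0.65 and 0.73 ± 0.27 (SE; adjusted p = 0.300 and 0.343). The median was 0.62 without French bulldog 11 and 1.79 without French bulldog 3. Leaving out 1 tumor at a time gave from 4 (without Boston terrier 1) to 15 (without French bulldog 3) at an unadjusted p under 0.05. Over all genes 877 of 16535 were higher in the first of these fits and 1508 of 16558 in the second.

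Of 19 matrix genes, 2 were higher at an unadjusted p under 0.05 (median log2 fold change 0.88), against 6.45% of all genes. There were 11 without French bulldog 3 (median 1.44), where 1508 of 16558 genes were higher. Without Boston terrier 2 there were 4, where 923 of 16472 genes were higher. The median was 0.40 without French bulldog 11. Rising with the score were the collagens COL5A1 (slope 0.82, adjusted p = 0.0492) and COL1A1 (slope 1.45, adjusted p = 0.0465). COL1A1 was at 302, 45.7, 6.07, 57.8 and 38.9 CPM against 64.6, 14.6, 4.83, 14.6 and 15.0 CPM, with French bulldogs 11 and 3 standing above the rest of their groups. PLOD1, a collagen lysyl hydroxylase, and the proteoglycan DCN had log2 fold changes of 0.93 ± 0.32 and 1.54 ± 0.72 (SE) that did not pass (adjusted p = 0.334 and 0.396).

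Proneural genes, which mark oligodendrocyte precursors and their relatives, lay mostly below 0 (12 of 15, median log2 fold change -0.53), with 5 lower at an unadjusted p under 0.05 and 2 that fell with the score. DCX, a microtubule protein of migrating neuroblasts, was at 124, 216, 337, 188 and 239 CPM against 329, 664, 777, 846 and 575 CPM. Only Boston terrier 2 and French bulldog 3 crossed, and DCX fell by 1.03 log2 units per unit of score (adjusted p = 0.0126). NKX2-2, an oligodendrocyte lineage factor, was at 53.3 to 62.3 CPM in the highest tumors and at 110.1 to 138 CPM in 4 of the lowest, but at 40.6 CPM in French bulldog 3. It fell by 0.63 per unit of score (adjusted p = 0.0409), and without French bulldog 3 it was lower in the high-score group at an adjusted p of 0.0494. SOX4 did not overlap (22.7 to 55.8 against 56.6 to 94.3 CPM, adjusted p = 0.292), and SOX10 did (202 to 334 against 308 to 464 CPM, adjusted p = 0.343). OLIG2 had a log2 fold change of 0.05 ± 0.23 (SE; adjusted p = 0.933), and the sign of this value changed under other choices of tumors.

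Genes of mitosis lay lower in the high-score tumors: all 17 lay below 0, with a median log2 fold change of -1.35, 11 were lower at an unadjusted p under 0.05, and BUB1, CCNA2 and KIF11 fell with the score. BUB1, a spindle checkpoint kinase, was at 2.12, 3.90, 2.41, 11.8 and 3.37 CPM against 8.66, 7.0, 64.7, 26.7 and 11.1 CPM (slope -1.53, adjusted p = 0.0309). CCNA2, cyclin A, was at 3.03, 4.90, 5.40, 16.2 and 6.29 CPM against 14.6, 9.99, 24.8, 21.3 and 12.9 CPM (slope -0.86, adjusted p = 0.0461). In each case Boston terrier 3 was the high-score tumor that reached into the low-score range. UBE2C and TPX2 had log2 fold changes of -1.77 ± 0.59 and -1.41 ± 0.48 (SE) that did not pass (adjusted p = 0.318 and 0.323).

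MKI67, the proliferation antigen, was at 46.3, 43.6, 42.9, 220.0 and 35.3 CPM against 121, 113, 704, 232 and 106 CPM (log2 fold change -1.69 ± 0.68 SE, adjusted p = 0.363). The summed mitotic level was 148 to 152 CPM in 4 of the highest tumors and 636 CPM in Boston terrier 3, against 344 to 1519 CPM in the lowest. Without Boston terrier 3, 15 of 17 mitotic genes were lower at an unadjusted p under 0.05 with a median of -2.07, and without French bulldogs 2 and 8 there were 4 with a median of -0.90. Without boxer 2 or Boston terrier 2 there were 6, and without French bulldog 7 there were 7. Over all genes, 1200 of 16477 were lower without Boston terrier 3 and 822 of 16465 without French bulldogs 2 and 8. All 16 DNA replication genes were also below 0 (median -0.72), 3 of them at an unadjusted p under 0.05, against 12 without Boston terrier 3 (median -1.36) and 1 without French bulldogs 2 and 8 (median -0.41). There was also 1 without French bulldog 11, French bulldog 4, boxer 2 or Boston terrier 2. MCM4, a helicase subunit, was at 18.6, 22.6, 21.6, 62.3 and 27.0 CPM against 39.2, 36.1, 109.8, 78.4 and 53.6 CPM and was the 1 that fell (slope -0.74, adjusted p = 0.0413). MCM3, RRM2 and TYMS had log2 fold changes of -1.25 ± 0.40, -1.41 ± 0.63 and -0.60 ± 0.30 (SE) that did not pass (adjusted p = 0.300, 0.389 and 0.415).

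Oxidative phosphorylation genes showed little, with a median log2 fold change of 0.16 over 23 genes and 1 higher at an unadjusted p under 0.05, COX7A1 (0.75 ± 0.31 SE, adjusted p = 0.367). The median ran from 0.024 without Boston terrier 3 to 0.25 without French bulldogs 2 and 8. CYC1, cytochrome c1, fell with the score (slope -0.61, adjusted p = 0.0454), at 10.2, 18.7, 23.8, 33.1 and 27.9 CPM against 25.2, 31.3, 66.9, 33.1 and 35.1 CPM. Of 8 genes of lactate and pH transport, 1 was higher at an unadjusted p under 0.05 and 0 were called. Of 9 redox and iron genes, the metallothionein MT2A rose (slope 1.03, adjusted p = 0.0466), and ferritin heavy chain FTH1 did not overlap between groups at 115 to 191 against 70.7 to 103 CPM (adjusted p = 0.295).

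The summed level of the 6 neutrophil markers that were counted was 51.5 to 157 CPM in the highest and 8.19 to 23.9 CPM in the lowest tumors, without overlap, and Boston terrier 2 was the highest. Only 4 of the 6 passed the filter on low counts, which a gene could do through the group where it was high, so the number of these past a threshold is no support. Red blood cell markers summed to 29.2 CPM in Boston terrier 2, 15.3 CPM in Boston terrier 3 and at most 2.47 CPM in each other tumor, and their part in the neutrophil result was not tested. CSF3R and S100A12 rose with the score. CSF3R, the receptor of the granulocyte growth factor, was at 7.88, 28.6, 95.6, 12.4 and 4.83 CPM against 7.09, 3.92, 0.329, 0.0924 and 1.41 CPM (slope 2.47, adjusted p = 0.0361). S100A12, a granule protein, was at 1.00 to 20.9 against 0 to 2.17 CPM (slope 2.45, adjusted p = 0.0492). Outside French bulldog 3 it was at most 0.56 CPM in the lowest tumors. It could pass the filter only through the highest, so its call is no support. S100A8, a calprotectin subunit, was at 47.6, 21.3, 21.6, 39.3 and 45.1 CPM against 10.0, 9.80, 23.3, 11.1 and 6.09 CPM (log2 fold change 1.57 ± 0.37 SE, adjusted p = 0.274). All 4 markers tested had an unadjusted p under 0.05, but with French bulldogs alone, or with breed as a covariate, 1 did.

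Of 12 inflammatory genes tested, out of 16 in the table, 6 were higher at an unadjusted p under 0.05, against 6.45% of all genes (median log2 fold change 1.35). Low-count members such as CXCL8 could pass the filter through the highest tumors alone, so this count is no support. Without French bulldog 11 there were 2, with a median of 0.53. CXCL8, the neutrophil chemokine, was at 3.23, 2.72, 8.47, 2.77 and 2.19 CPM against 0.492, 0.373, 0, 0 and 1.41 CPM (log2 fold change 3.18 ± 0.95 SE, adjusted p = 0.297). With 0 to 12 counts in the lowest tumors it could pass the filter only through the highest, so that it did not overlap is no support. IL1RN, the interleukin 1 receptor antagonist, and SOCS3, a feedback inhibitor of cytokine signalling, rose with the score (adjusted p = 0.0381 and 0.0405), with 16.7 and 14.5 CPM in French bulldog 11 and at most 2.83 and 1.91 CPM in the other highest tumors. TNFAIP3 had a log2 fold change of 1.1 ± 0.39 (SE, adjusted p = 0.339). Microglia and macrophage markers had a median of 0.74 with 2 of 15 higher at an unadjusted p under 0.05. There were 8 without Boston terrier 2 and 6 without French bulldog 3, fits where 923 of 16472 and 1508 of 16558 genes were higher. The median was 0.49 without French bulldog 11, with 1 of 15 higher. CSF1R, the receptor that keeps these cells alive, was at 18.4 to 75.5 against 12.3 to 47.5 CPM (adjusted p = 0.438). ITGAM, an integrin of myeloid cells, was at 9.39, 15.0, 24.2, 13.22 and 5.20 CPM against 5.12, 6.44, 0.604, 2.49 and 3.75 CPM (adjusted p = 0.298). CD4 rose (slope 2.18, adjusted p = 0.0351), with 44.6 CPM in Boston terrier 2 and 3.28 to 12.6 CPM in the other highest tumors.

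Neuronal markers all lay above 0 (13 of 13, median log2 fold change 1.23), with 1 higher at an unadjusted p under 0.05. Without 1 tumor at a time 0 to 3 were higher, the 3 without French bulldog 11 (median 1.54). The median ran from 0.54 without French bulldog 7 to 1.64 without French bulldog 4. The summed neuronal level was 92.9 and 124 CPM in French bulldog 11 and Boston terrier 3 and 756 to 2342 CPM in the other highest tumors, against 123 to 844 CPM in the lowest. SNAP25, a synaptic protein, was at 7.78, 121, 248, 4.75 and 409.6 CPM against 98.7, 31.1, 12.3, 176 and 29.1 CPM (adjusted p = 0.631). The astrocyte marker GFAP was at 246 to 2229 against 158 to 1153 CPM and the myelin gene MBP at 309 to 886 against 94.2 to 777 CPM (adjusted p = 0.673 and 0.678). Oligodendrocyte and astrocyte lists had medians of -0.11 and 0.60, with 1 of 10 lower and 1 of 9 higher at an unadjusted p under 0.05, and without French bulldog 3 the oligodendrocyte median was 0.24 and without French bulldogs 2 and 8 it was -0.40. For astrocytes the median was 0.40 without French bulldogs 2 and 8. Only 3 of 11 T cell markers passed the filter, with a median of 0.21 that ran from -0.03 without French bulldog 4 to 0.79 without French bulldogs 2 and 8, and no red blood cell marker passed the edgeR filter between the 5 highest and 5 lowest tumors. The part of these cell types in the results above was not tested.

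**Figure D4:**
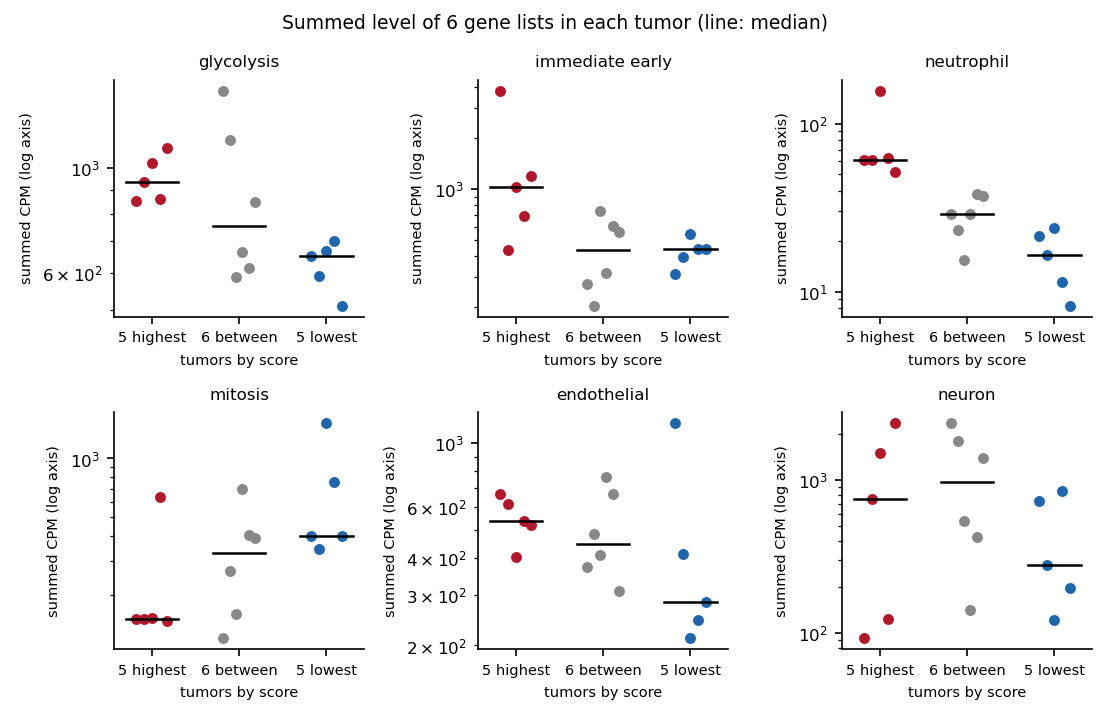
Each panel plots the summed CPM of a gene list (log axis) in the 5 tumors with the highest score, the 6 in between and the 5 with the lowest, with a line at the median. Neutrophil genes (51.5 to 157 against 8.19 to 23.9 CPM) and glycolysis do not overlap between the ends, 1 high-score tumor reaches 636 CPM for mitosis, and 1 low-score tumor reaches 1175 CPM for endothelial genes.

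The 6 genes with a symbol and the smallest p among those higher in the high-score tumors were C5AR1, ZFR2, PDLIM4, ELL2, PLA2G7 and SYCE1. The fit over 16 tumors shares the 10 tumors that chose these 6, so a rise with the score is largely fixed by that choice. C5AR1, the complement C5a receptor of myeloid cells, was at 4.14, 3.63, 5.90, 3.11 and 1.92 CPM against 1.08, 0.373, 0.494, 0.739 and 0.585 CPM (log2 fold change 2.53 ± 0.42 SE, adjusted p = 0.100). C5AR1 and SYCE1 had at most 11 and 4 counts in the lowest tumors. They could thus pass the filter only through the highest, and their place among these 6 genes is no support. C5AR1 rose with the score with French bulldog 11 (slope 1.44, adjusted p = 0.0106) and without it (slope 1.55, adjusted p = 0.0412), which for the same reason is no support. ARHGAP45, named after its values were seen, was the other gene with a symbol that rose both with and without that tumor (slopes 1.30 and 1.40, adjusted p = 0.0106 and 0.0412), at 8.75 to 15.2 against 1.76 to 7.38 CPM. PLA2G7, a secreted phospholipase of macrophages, was at 8.56 to 16.6 against 2.09 to 6.65 CPM, ELL2, a transcription elongation factor, at 20.5 to 35.5 against 9.94 to 18.2 CPM, and ZFR2 at 15.7 to 50.9 against 3.46 to 9.65 CPM. These 3 rose with the score (adjusted p = 0.0254, 0.0351 and 0.0296). PDLIM4 and SYCE1 did not (adjusted p = 0.196 and 0.0660), and SYCE1, a meiotic gene, had 24.2 CPM in Boston terrier 3 against 1.51 to 6.56 CPM in the other highest and 0 to 0.468 CPM in the lowest tumors.

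Among genes with a symbol that were lower, the 6 smallest p belonged to PABPC1, CDH20, EIF3E, MTBP, TATDN1 and INTS13. The groups did not overlap for any of them, against 1.67% of all genes, which the choice by smallest p largely fixes. PABPC1, the cytoplasmic poly(A) binding protein, was at 366, 469.8, 413, 675 and 622 CPM against 1023, 1515, 1372, 1395 and 1586 CPM (log2 fold change -1.42 ± 0.22 SE, adjusted p = 0.0686). EIF3E, a translation initiation subunit, was at 80.98 to 119 against 149 to 254 CPM, and CDH20, a cadherin, at 82.6 to 120.4 against 165 to 265 CPM. MTBP, a binding partner of MDM2, was at 12.8 to 19.8 against 23.7 to 36.6 CPM, TATDN1 at 12.0 to 17.0 against 22.2 to 28.2 CPM and INTS13, an Integrator subunit, at 18.9 to 22.0 against 31.6 to 37.4 CPM. All 6 fell with the score, by 0.94 for PABPC1, 0.60 for CDH20, 0.70 for EIF3E, 0.63 for MTBP, 0.55 for TATDN1 and 0.43 for INTS13 (adjusted p = 0.0282, 0.0380, 0.0373, 0.0163, 0.0179 and 0.0495). PABPC1 is known to have near-identical copies, and whether reads were split among them is not stated, so its level is uncertain.

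PABPC1, EIF3E, MTBP and TATDN1 share a chromosome. By symbol in the RefSeq annotation of UU_Cfam_GSD_1.0, an assembly other than that of the counts, 96.2% of 11451 tested genes with a symbol were placed on 1 chromosome. On chromosome 13, 106 of 219 genes (48.4%) were lower at an unadjusted p under 0.05 and 3 higher, with a median log2 fold change of -0.63, and 63 of 223 fell with the score. On chromosome 22, 51 of 118 genes (43.2%) were higher and 0 lower, with a median of 0.55, and 12 of 125 rose. Chromosome 7 had 80 of 394 lower (20.3%) and 34 of 408 that fell, and chromosome 18 had 63 of 383 higher (16.4%) and 21 of 395 that rose. This grouping was made after the values were seen.

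The median deviation of chromosome 13 genes from their mean over 16 tumors was -0.71, -0.22, -0.26, 0.10 and 0.12 log2 units in the highest tumors and 0.11, 0.40, 0.64, 0.51 and 0.47 in the lowest. The middle tumors ran from -0.66 in boxer 3 to 0.23 in boxer 4. Boxer 3, French bulldog 9 (-0.50) and French bulldog 1 (-0.36) lay below all of the highest but French bulldog 11. For chromosome 22 the median deviation was 0.47, -0.09, 0.41, 0.46 and -0.05 in the highest and -0.07, -0.31, -0.30, -0.19 and -0.32 in the lowest. In the middle tumors it ran from -0.32 to 0.35. Boston terrier 3 and French bulldog 7 thus resembled French bulldog 3 on chromosome 13, while boxer 2 and French bulldog 7 lay near French bulldog 3 on chromosome 22. For chromosome 18 it was 0.56 in French bulldog 11, -0.04 to 0.07 in the other 4 highest and -0.29 to 0.08 in the lowest tumors.

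**Figure D5:**
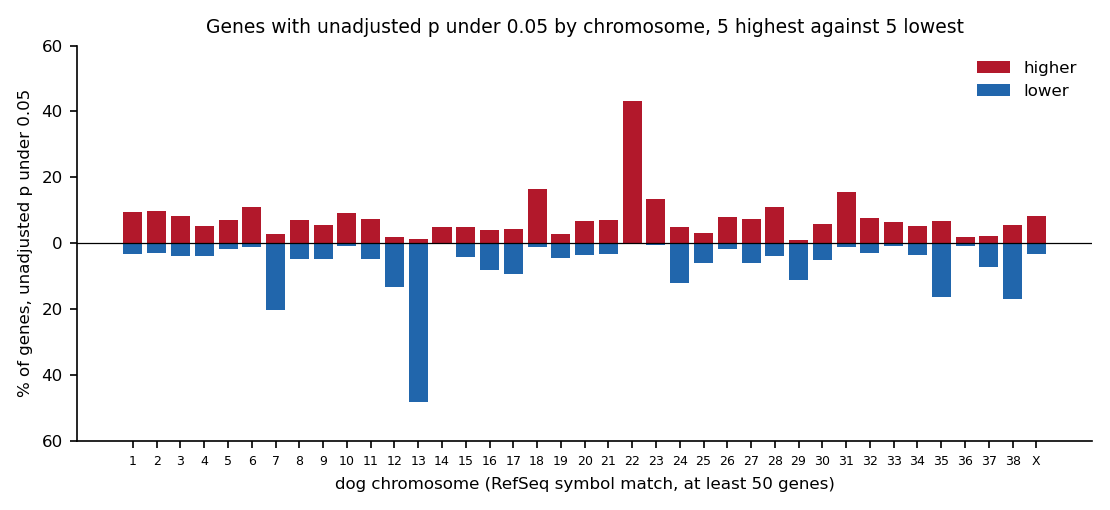
Bars give, for each dog chromosome, the percent of its genes that were higher (up) or lower (down) in the 5 highest tumors at an unadjusted p under 0.05. Chromosome 13 reaches 48.4% lower and chromosome 22 reaches 43.2% higher, against 6.32% and 6.45% over all genes.

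A difference in slope between French bulldogs and the other breeds was called for 0 of 18420 genes by edgeR's quasi-likelihood test of the interaction (0.0%; smallest adjusted p = 0.468), which does not show that slopes were alike, and 671 had an unadjusted p under 0.05 (3.64%). With breed as a covariate 462 genes were called over 16 tumors, 228 up and 234 down. Between the 5 highest and 5 lowest tumors the same covariate left 0 calls with a smallest adjusted p of 0.25, and French bulldogs alone, 2 against 4, gave 0 calls and 1544 genes at an unadjusted p under 0.05.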

How the data were processed

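RNA from paraffin-embedded HGO, in 18 libraries, had been sequenced from both ends after ribosomal depletion. According to the study's methods and processing notes, reads were trimmed with Trimmomatic 0.33, mapped with HISAT2 2.1.0 to the Dog10K_Boxer_Tasha assembly (canFam6) and counted with featureCounts. The authors deposited raw counts per gene for 29993 genes, 16324 with a symbol, without normalization. Strand and multi-mapping settings are not given in the sources used here, so overlapping, antisense and near-identical genes may share counts.

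Groups were set by the score, not by a label of the study. CPM use TMM library sizes, and log2 CPM a prior count of 2. Each tumor is taken as 1 dog. The labels do not say how samples were handled, so p-values measure the spread between these samples, which may in part be technical. Genes were tested in R 4.3.3 with the quasi-likelihood method of edgeR 4.0.16 (TMM, filterByExpr, robust, two-sided, Benjamini-Hochberg, threshold 0.05). Each SE was derived from the fold change and its F statistic. Score genes stayed in the fit and out of the counts. Alternatives were the DESeq2 Wald test (DESeq2 1.42.0), limma-voom (limma 3.58.1), other scalings, filters, covariates, score genes and tumors. The code was tested on simulated data.

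Totals were 8212452 to 13169880 counts per library. A level of 3 counts, taken as the smallest visible, was 0.167 to 0.365 per tumor in CPM by plain library totals, which covers counting error only. The 5 score genes, the gene lists and the tumors were chosen with earlier results of these data known. Named genes were the 6 genes with a symbol and the smallest p in each direction (as fewer than 6 were called), the 8 hypoxia targets with the smallest p, HIF1A, EPAS1, ARNT, VHL, the 4 smallest p of each other list, and 9 marker genes. Genes of that rule from lists without a call are in part given only by their counts, and 1 gene of the rule is not reported here. Gene lengths were not used here, so CPM are not comparable between genes.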

Additional observations from a re-analysis of the deposited data

Results flagged for a closer look

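In 90 named genes, each of the 5 highest and the 5 lowest tumors was searched for a tumor whose gap to its nearest neighbour, divided by the range of the group, exceeded Dixon's 95% critical value of 0.71. This marked 43 values in 180 groups of 5, and chance marks about 1 in 20 groups of normally distributed values. The rate for CPM, which are skewed, was not measured.

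French bulldog 11 stood above the other 4 highest tumors for 13 genes: IGFBP3 (95.5 CPM), PGM1 (47.0 CPM), PPP1R3B (193 CPM), IER2 (165 CPM), FOS (712 CPM), CD44 (309.6 CPM), COL1A1 (302 CPM), PLOD1 (135 CPM), DCN (27.2 CPM), IL1RN (16.7 CPM), SOCS3 (14.5 CPM), TAGLN (50.5 CPM) and MBP (886 CPM). Boston terrier 3 stood above the rest of that group for SYCE1 (24.2 CPM), MTBP (19.8 CPM) and 7 genes of division: BUB1 (11.8 CPM), UBE2C (10.98 CPM), TPX2 (64.5 CPM), CCNA2 (16.2 CPM), MKI67 (220.0 CPM), MCM4 (62.3 CPM) and RRM2 (72.5 CPM). Boston terrier 2 did so for CXCL8 (8.47 CPM), CD4 (44.6 CPM), CSF3R (95.6 CPM) and S100A12 (20.9 CPM).

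Among the 5 lowest, French bulldog 3 stood above the others for ARHGAP45 (7.38 CPM), IGFBP3 (3.35 CPM), PLIN2 (11.8 CPM), TGFBI (21.5 CPM), COL1A1 (64.6 CPM), PECAM1 (131 CPM), KDR (115 CPM), TAGLN (26.0 CPM) and S100A12 (2.17 CPM), and below them for NKX2-2 (40.6 CPM). French bulldogs 2 and 8 did so for MXI1 (198 CPM), HIF1A (153 CPM), PGM1 (33.9 CPM), MKI67 (704 CPM), MCM3 (102 CPM) and CYC1 (66.9 CPM), and MKI67 was high in each of the 2 libraries before they were summed (669 and 758 CPM, scaled by library totals). French bulldog 5 had SYCE1 at 0.468 CPM. No cause was tested.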

How the results depend on the processing

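Between the 5 highest and 5 lowest tumors the 0 calls became 296 with DESeq2, 5 with limma-voom and 5 with at least 10 counts in every tumor. There were 165 with French bulldogs 2 and 8 not summed. The same case number then filled 2 of the lowest 5 places and French bulldog 3 left them. A score without VEGFA gave 8, and a score without CA9 gave 1 (ARHGAP45). With the score as a continuous term and the 6 middle tumors added there were 468. The 5 calls of limma-voom, all lower, were genes without a symbol, among them ENSCAFG00000058575 and ENSCAFG00000050834 (log2 fold changes of -1.33 and -1.31 in the edgeR test). Without 1 tumor at a time there were 0 to 3, the 3 (ARHGAP45, NKX2-2 and ENSCAFG00000058575) without French bulldog 3. Genes at an unadjusted p under 0.05 numbered 1443 to 2766 without 1 tumor, 3700 with French bulldogs 2 and 8 apart and 3406 over 16 tumors. The calls over 16 tumors were 1275 with DESeq2, an alternative added after the data were seen, and 4 to 762 without 1 tumor: 4 without French bulldog 11, 92 without 5, 118 without 4, 137 without 2 and 8, 300 without 7, 234 without Boston terrier 1 and 762 without Boston terrier 3. The cause was not tested.

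Signs turned for HIF1A without French bulldogs 2 and 8 (0.030), EPAS1 in French bulldogs only (-0.045) and KDR with 8 against 8 tumors (-0.10). For OLIG2 they turned with the breed covariate (-0.18), in French bulldogs only (-0.19), without Boston terrier 3 (-0.16) or French bulldog 3 (-0.04; range without 1 tumor -0.16 to 0.18), with 8 against 8 (-0.11), without ADM (-0.027), without CA9 (-0.061) and as a slope (-0.076). The signs of the other 86 of 90 genes checked held under each alternative in which they were tested. No paired analysis was possible because the numbers of the dogs are names and pair no tumors. With 5 tumors a group, differences of modest size could be missed, and the low counts of genes such as CXCL8 and SYCE1 limit their precision.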
